A study of Mus musculus with 8 samples.

Results

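Transcripts of neurons and synapses were examined in 8 libraries of mouse embryonic stem (ES) cells. The set held 31 genes of 43309 in the count table, and the genes were chosen by their high counts in the 2 libraries of 100 KO cells together with their use as neuronal markers. The comparison of those 2 libraries with the other 6 is therefore a description and carries no test for these 31 genes. After a filter of at least 10 counts in at least 1 library, 30 of the 31 genes were among 16816 tested genes. *Slc32a1* did not pass, and 6 of the 30 passed only through the libraries of 100 KO cells.

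All cells were of the J1 line, from the 129SV strain, and grew in serum medium on gelatin with no feeder cells. The wild-type (WT) cells carried the Zbtb24 alleles 2lox/+ and the knockout (KO) cells 1lox/1lox. Cells were lysed without RNA isolation, and cDNA was made with the SMARTer Ultra Low RNA Kit v3. Each genotype gave 2 libraries of 1000 cells (about 10 ng of RNA, 10 PCR cycles) and 2 of 100 cells (about 1 ng, 18 cycles). Input and PCR cycles changed together and cannot be told apart, and neither can a property of the 2 libraries of 100 KO cells and the combination of genotype and input. The replicates were described as clones of each genotype, but the clone behind each library was not given.

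Library totals ranged from 9666985 to 16686525 counts. *Zbtb24* itself was at 37.3 to 40.8 cpm (counts scaled to a normalised library size of 1000000) in the 4 libraries labelled KO and at 14.1 to 20.3 cpm in the 4 labelled WT. This direction goes against the label, although a whole-gene count does not show a missing exon. Libraries are therefore named by their labels, and every direction of KO against WT rests on them. *Cdca7*, whose transcription is known to need ZBTB24, was at 47.5 to 64.8 cpm in the libraries labelled KO and at 160.0 to 167 cpm in those labelled WT. The ES cell genes *Nanog*, *Sox2* and *Pou5f1* were present in every library. *Pou5f1* was at 88.6 and 93.4 cpm in the 100 KO cells and at 36.9 to 75.3 cpm elsewhere.

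A neuron releases transmitter when synaptic vesicles, loaded by transmitter transporters, fuse with the membrane through SNARE proteins under the control of calcium sensors. Receptors, scaffold proteins and calcium-dependent kinases receive the signal on the other side of the synapse. In most cells that are not neurons, the repressor REST keeps many of these genes low by binding an element named RE1, and ES cells express REST. In bulk RNA, fewer cells of a type and less RNA per cell cannot be told apart.

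Promoters of 3 genes are shown because they differ in the elements found in them. *Syn1* is a textbook REST target, *Sst* carries a well-known cAMP response element, and *Gria2* was the gene with the largest ratio. Each run is the 250 bases before the RefSeq start in GRCm38.p6, on the minus strand as the gene is read. Capitals mark the letters TCAGCACC, the left arm of RE1, and TGACGTCA, the cAMP response element. Both strands were searched.
Syn1, chrX:20920919-20921168: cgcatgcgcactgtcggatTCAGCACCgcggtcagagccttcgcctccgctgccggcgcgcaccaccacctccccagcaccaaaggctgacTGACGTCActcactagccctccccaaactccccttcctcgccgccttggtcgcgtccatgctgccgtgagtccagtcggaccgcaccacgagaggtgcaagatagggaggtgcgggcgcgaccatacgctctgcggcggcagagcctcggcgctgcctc
Sst, chr16:23890845-23891094: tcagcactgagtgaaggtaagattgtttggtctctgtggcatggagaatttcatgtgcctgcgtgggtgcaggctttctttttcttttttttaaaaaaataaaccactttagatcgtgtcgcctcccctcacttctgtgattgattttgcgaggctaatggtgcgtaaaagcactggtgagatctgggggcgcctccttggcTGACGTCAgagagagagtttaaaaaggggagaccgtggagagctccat
Gria2, chr3:80802836-80803085: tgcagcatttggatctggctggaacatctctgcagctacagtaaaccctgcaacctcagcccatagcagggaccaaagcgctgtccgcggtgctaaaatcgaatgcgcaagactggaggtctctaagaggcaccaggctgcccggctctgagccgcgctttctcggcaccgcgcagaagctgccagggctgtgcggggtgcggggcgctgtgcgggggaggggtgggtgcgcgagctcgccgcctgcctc

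In *Syn1* the left arm began 231 bases and the cAMP response element 159 bases before the start, and in *Sst* the element began 48 bases before it. Neither run of letters was present in this window of *Gria2*. A promoter was listed for 20 of the 31 genes. The left arm was found in 1 of the 20, against 1.32% of all 32851 promoters, and the cAMP response element in 2 of the 20, against 1.55%. The GC box GGGCGG was found in 11 of the 20 and in 32.7% of all promoters, and TATAAA in 1 of the 20 and in 12.4%. A match is a run of letters and was not tested as a site.

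In the libraries of 100 KO cells, 28 of the 31 genes were above all 6 other libraries and 2 (*Stmn2* and *Dlg4*) were below all of them. Among all tested genes, 22.4% were above all 6 others in this way and 18.7% below, but the choice of genes fixed the count for this set. The pooled ratio of the 2 libraries to the other 6 had a median of 8.41 over the 31 genes, exceeded 2 for 27 genes and exceeded 10 for 14. Exact 95% intervals of the ratios reflect counting error alone, because amplified fragments carried no molecular identifiers and are not separate molecules. The plot of levels by library shows the 2 libraries of 100 KO cells close to each other and apart from the rest for most genes. Between these 2 libraries no gene of the set differed by more than 0.38 on the log2(cpm + 0.5) scale.

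**Figure D1:**
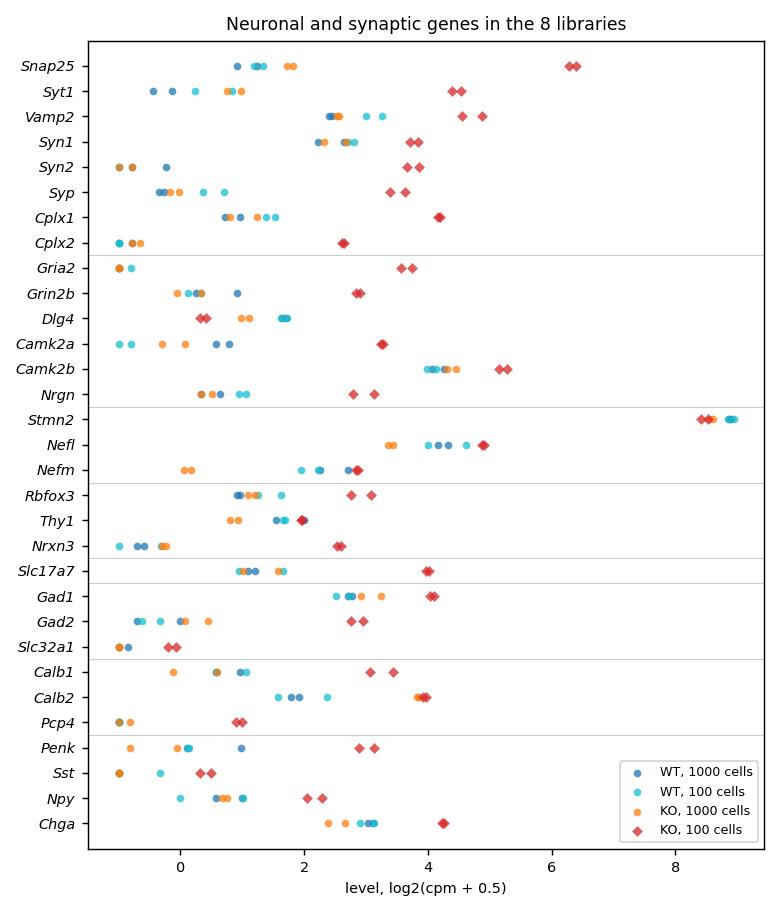
Level of each of the 31 genes on a log2(cpm + 0.5) scale (horizontal axis) in the 8 libraries, 1 point per library, coloured by group and ordered by role. The 2 libraries of 100 KO cells (diamonds) lie above all 6 others for 28 genes and below all 6 for *Stmn2* and *Dlg4*.

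The 8 genes of synaptic vesicles and release were all above the other libraries. *Snap25* (chr2:136713453-136782428, plus strand), a SNARE protein of the plasma membrane, had 32 and 17 counts in WT 1000, 18 and 27 in WT 100, 36 and 44 in KO 1000, and 1121 and 1021 in KO 100. The 2 KO 100 libraries stood alone, with 83.6 and 77.1 cpm against 1.39 to 3.04 cpm in the others and a ratio of 37.1 (95% interval 31.7 to 43.5). *Syn2*, which tethers vesicles, had 6 and 1 counts in WT 1000, none in WT 100, 1 and 0 in KO 1000, and 187 and 162 in KO 100. It was therefore almost undetected outside KO 100, with a ratio of 131 (65.9 to 307). *Cplx2*, a complexin that clamps fusion, had 0 to 2 counts in each of the other 6 libraries and 77 and 74 in KO 100.

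*Syt1*, the calcium sensor of fast release, was at 0.23 and 0.41 cpm in WT 1000, 1.28 and 0.68 in WT 100, 1.48 and 1.18 in KO 1000, and 22.7 and 20.5 in KO 100. The synaptic vesicle protein *Syp* and the complexin *Cplx1* had ratios of 19.9 (14.5 to 28.0) and 10.7 (8.78 to 13.0). *Vamp2*, the SNARE protein of the vesicle, and *Syn1* were clearly present in the other 6 libraries, at 4.80 to 9.09 and 4.17 to 6.52 cpm. Their ratios were smaller, at 4.31 (3.83 to 4.85) and 2.41 (2.09 to 2.78). *Syn1* thus had the smallest ratio of the 8.

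Of the 6 postsynaptic genes, 5 were above the other libraries. *Gria2*, an AMPA receptor subunit, had 1 count in the other 6 libraries together, in WT 100, and 172 and 151 counts in KO 100. With so few counts outside KO 100, its ratio of 972 had an interval of 173 to 38524. The kinase subunit *Camk2a* had 17 and 15 counts in WT 1000, 0 and 1 in WT 100, 4 and 8 in KO 1000, and 120 and 122 in KO 100. *Camk2b*, its sister subunit, was already at 15.3 to 21.4 cpm in the other 6 libraries and reached 38.5 and 35.0 cpm. *Grin2b*, an NMDA receptor subunit, had a ratio of 8.84 (6.59 to 11.99), and *Nrgn*, which binds calmodulin in dendrites, of 6.99 (5.38 to 9.14).

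*Dlg4*, which encodes the postsynaptic scaffold PSD-95, went the other way. It was at 2.78 and 2.62 cpm in WT 1000, 2.57 and 2.79 in WT 100, 1.48 and 1.66 in KO 1000, and 0.75 and 0.83 in KO 100. Both inputs of KO were thus below WT, and KO 100 was lowest, with a ratio of 0.34 (0.21 to 0.53).

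Of the 3 cytoskeletal genes, 2 were above the other libraries and 1 was below. *Stmn2*, a regulator of microtubules in growing axons, was the most abundant gene of the set in every library, at 375 to 492 cpm in the other 6 and 342 and 370 cpm in KO 100. Per kb of exon it was at 63.5 cpm in KO 100, against 11.8 cpm for *Snap25*. Levels per kb take counts to scale with exon length, which was not tested. The neurofilament genes *Nefl* and *Nefm* had ratios of 1.82 (1.66 to 1.99) and 2.13 (1.75 to 2.59). These ratios pool groups that differed. *Nefm* was at 4.28 and 6.05 cpm in WT 1000, 3.36 and 4.15 in WT 100, 0.54 and 0.62 in KO 1000, and 6.64 and 6.80 in KO 100. *Nefl* was at 17.4 and 19.5 cpm in WT 1000, 15.6 and 24.05 in WT 100, 9.70 and 10.3 in KO 1000, and 28.9 and 29.6 in KO 100. *Nefl* and *Nefm* lie next to each other on chromosome 14 on opposite strands. In GENCODE M21, 32.8% of the exon bases of *Nefl* and 19.2% of those of *Nefm* are shared. Counting ignored the strand and discarded fragments that matched both genes, so fragments from shared bases would be missing from both counts. The counts were made over GENCODE M4, in which the overlap was not checked.

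Among genes of the neuronal nucleus and surface, *Rbfox3*, which encodes the nuclear marker NeuN, was at 1.39 to 2.57 cpm in the other 6 libraries and at 6.26 and 8.0 cpm in KO 100. *Nrxn3*, a presynaptic adhesion molecule, had 0 to 5 counts in each of the other libraries and 71 and 73 in KO 100. *Thy1*, a surface protein of neurons and of other cells, was at 3.36 and 3.40 cpm in KO 100 and reached 3.51 cpm in WT 1000, so the groups overlapped.

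**Figure D2:**
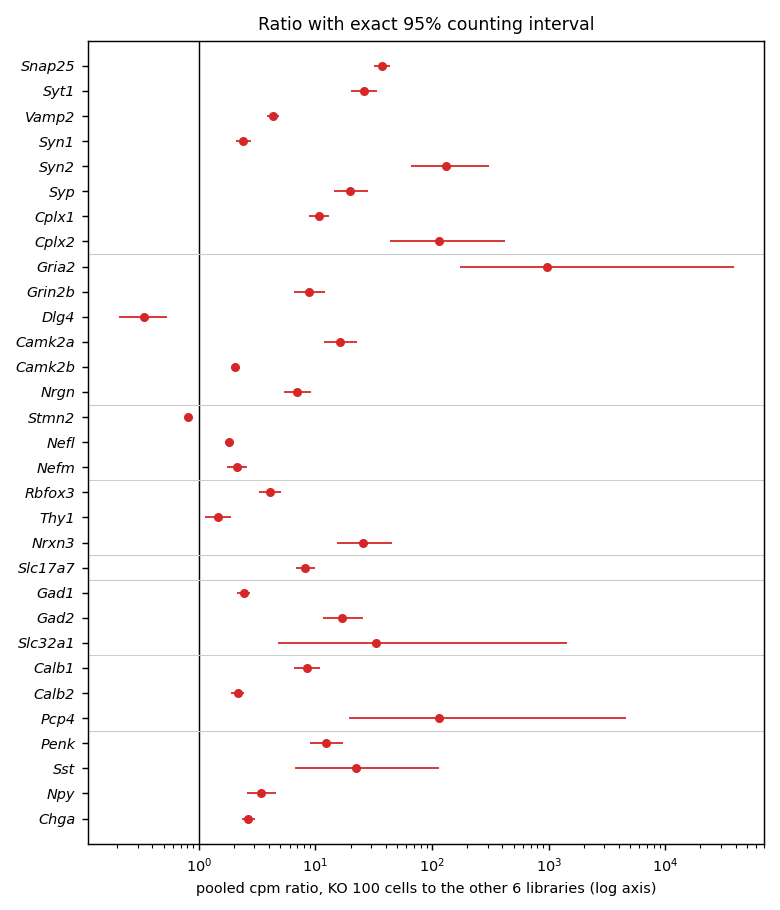
Ratio of pooled cpm in the 2 libraries of 100 KO cells to the other 6 (horizontal, log axis) for each of the 31 genes, with exact 95% counting intervals. The ratios run from 0.34 for *Dlg4* to 972 for *Gria2*, and the widest intervals belong to genes with 4 or fewer counts in the other 6 libraries.

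Genes that mark transmitter types were present for both glutamate and GABA. *Slc17a7*, which loads glutamate into vesicles of cortical neurons, had 19 to 32 counts in each of the other 6 libraries and 211 and 201 in KO 100. *Gad1* and *Gad2* make GABA. *Gad1* was at 5.24 to 9.01 cpm in the other libraries and 16.6 and 15.9 in KO 100, and *Gad2* at 0.12 to 0.85 cpm and 6.26 and 7.25. *Slc32a1*, which loads GABA into vesicles, had 1 count in the other 6 libraries together and 5 and 6 in KO 100. Per kb of exon, the difference in level between KO 100 and the other libraries was 2.51 cpm for *Slc17a7*, 1.26 for *Gad1*, 1.08 for *Gad2* and 0.14 for *Slc32a1*. The authors report coverage skewed towards the tail end of transcripts in SMARTer libraries, so counts need not scale with exon length. These values are therefore not proportions of neuron types. Of the exon bases of *Slc32a1* in GENCODE M21, 24.9% are shared with the gene *Gm14205*.

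The calcium-binding proteins *Calb1* and *Calb2* mark classes of interneurons and projection neurons. *Calb1* had a ratio of 8.41 (6.56 to 10.9). *Calb2* was at 2.95 and 3.27 cpm in WT 1000, 2.47 and 4.67 in WT 100, 13.7 and 14.0 in KO 1000, and 15.2 and 14.7 in KO 100. Its level thus followed the genotype label at both inputs. *Pcp4*, a calmodulin-binding protein of Purkinje cells, had 1 count in the other 6 libraries together and 20 and 18 in KO 100. In GENCODE M21 it shares 23.7% of its exon bases with *Igsf5*.

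The 4 genes of neuropeptides and granules were above the other libraries. *Penk*, the enkephalin precursor, had 6 to 18 counts in 5 of the other libraries and 1 in KO 1000 replicate 2, and 93 and 109 in KO 100. *Sst*, the somatostatin precursor, had 3 counts in 1 WT 100 library, none in the other 5, and 10 and 12 in KO 100. *Npy*, the neuropeptide Y precursor, had a ratio of 3.43 (2.57 to 4.57). *Chga*, a granule protein, was at 4.70 to 8.29 cpm in the other libraries and 18.7 and 18.4 in KO 100.

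To ask which of these genes differed between genotypes without the libraries that chose them, KO was compared with WT at 1000 cells. In the quasi-likelihood test of edgeR, adjusted by Benjamini-Hochberg across the 16816 genes, 3 of the 30 genes were higher in KO and 7 lower. Over all 16816 tested genes 20.9% were higher and 20.6% lower. With library size alone as the scaling, the calls over all genes became 2776 higher and 4290 lower, against 3514 and 3465.

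*Calb2* rose by 2.16 ± 0.19 (log2, SE, adjusted p = 1.25e-10). *Nefm* fell by 3.10 ± 0.35 (adjusted p = 1.97e-08), from 4.28 and 6.05 cpm in WT to 0.54 and 0.62 cpm in KO. *Nefl* fell by 0.87 ± 0.14 (adjusted p = 6.11e-06) and *Stmn2* by 0.31 ± 0.06 (adjusted p = 6.52e-05). These 4 calls held under each alternative in which the gene was tested. All 3 cytoskeletal genes were thus lower in KO at 1000 cells.

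The other 6 calls depended on single libraries. *Syt1* rose by 2.07 ± 0.59 (adjusted p = 0.00535), which was 0.0561 without WT 1000 replicate 1. *Snap25* rose by 0.82 ± 0.31 (adjusted p = 0.0322), which was 0.138 without WT 1000 replicate 2, 0.0608 without KO 1000 replicate 1 and 0.150 without KO 1000 replicate 2. *Thy1* fell by 1.14 ± 0.33 (adjusted p = 0.00634), which was 0.0734 without WT 1000 replicate 2. *Chga* fell by 0.60 ± 0.19 (adjusted p = 0.0143), which was 0.0679 without WT 1000 replicate 1 and 0.173 without KO 1000 replicate 2. *Penk* fell by 1.89 ± 0.74 (adjusted p = 0.0401), which was 0.334 without WT 1000 replicate 2 and 0.318 without KO 1000 replicate 2. *Dlg4* fell by 0.78 ± 0.32 (adjusted p = 0.0477), and leaving out any 1 of the 4 libraries gave 0.0705 to 0.173. *Gria2* and *Sst* had no count in any of these 4 libraries.

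Input alone was compared in WT, 100 against 1000 cells. None of the 30 genes passed the threshold in edgeR or in DESeq2, and 2 had an unadjusted p under 0.05 in edgeR. Over all tested genes 0.149% were higher and 0.678% lower. The 2 genes were *Camk2a*, with a log2 ratio of -4.43 ± 1.11 (edgeR, adjusted p = 0.0747), and *Vamp2*, with 0.75 ± 0.25 (edgeR, adjusted p = 0.202). The WT 100 replicates differed from each other more than those of any other group. Their chi-square per gene over all tested genes was 15.01, against 2.93 in WT 1000. With that spread, the lack of calls does not show that input left the 30 genes unchanged. Without WT 100 replicate 1 the adjusted p of *Camk2a* was 0.00824, and without WT 100 replicate 2 it was 0.00404 and that of *Vamp2* 0.00517.

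**Figure D3:**
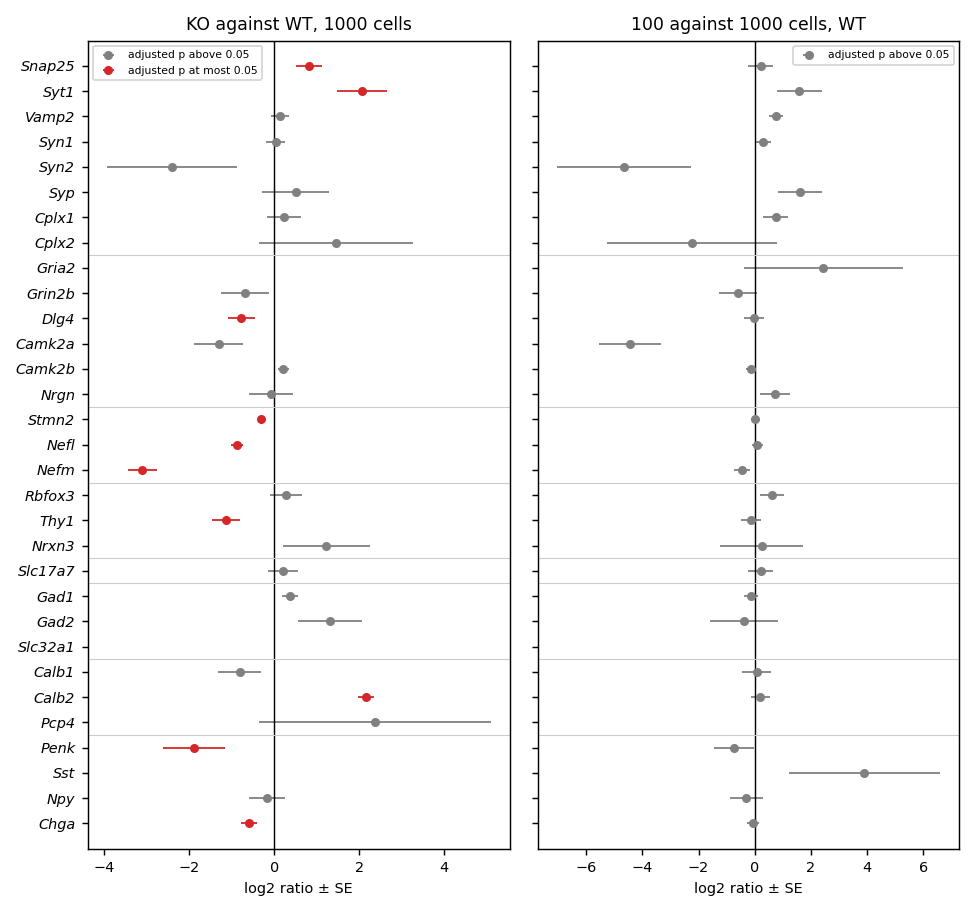
Log2 ratio with its SE for KO against WT at 1000 cells (left) and for 100 against 1000 cells in WT (right), for the tested genes of the set with a count in those libraries. Red marks an adjusted p of at most 0.05 in edgeR, which 10 genes reached on the left and none on the right.

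Neuronal genes outside the set were counted over 4 wider lists, the comparison being KO 100 against the other 6 libraries. These lists were chosen with earlier results of the same libraries known. Of 75 tested genes, 58 were higher and 1, *Sv2c*, was lower, with a median log2 ratio of 1.68, beside 26.8% higher, 21.3% lower and a median of 0.03 over all tested genes. Of the 75 genes, 19 reached 10 counts only in KO 100, so that their direction was set by the filter. Of the other 56 genes, 39 were higher and 1 lower, beside 23.9% higher and 22.3% lower over the 16006 tested genes that reached 10 counts elsewhere. Among genes that reached 10 counts elsewhere, 5 of 7 ion channel genes were higher, 8 of 10 postsynaptic genes, 17 of 22 presynaptic genes and 9 of 17 pan-neuronal genes. *Kcna1*, a potassium channel of axons, rose by 4.43 ± 0.31 (log2, edgeR, adjusted p = 7.3e-08). Of 6 further neuropeptide and granule genes that reached 10 counts elsewhere 4 were higher, led by the processing enzyme *Cpe* at 55.3 and 57.1 cpm against 5.39 to 9.29.

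Markers of brain regions were read in the same way, beside the same 23.9% higher and 22.3% lower. Among genes that reached 10 counts elsewhere, 3 of 4 striatum genes, 4 of 7 cerebellum genes and 3 of 7 thalamus genes were higher and none lower in edgeR, and DESeq2 also called none of them lower. Of the 3 neocortex genes 2 were higher and 1 was lower, and of the 4 hippocampus genes 2 were higher and 1 was lower. Another 5 neocortex, 5 striatum, 7 cerebellum, 1 thalamus and 1 hippocampus genes reached 10 counts only in KO 100, and their values are a description. *Lamp5* of the neocortex had no count in the other 6 libraries and 52 and 50 in KO 100, a level at least 102-fold higher against a floor of 3 counts over the 6 libraries. *Gabra6*, a receptor subunit of cerebellar granule cells, had 1 count elsewhere and 42 and 36 in KO 100. *Slc17a6*, the vesicular glutamate transporter of the thalamus, had no count elsewhere and 38 and 27 in KO 100, at least 65.2-fold higher. Per kb of exon, its difference in level was 0.45 cpm, against 2.51 cpm for *Slc17a7*, with the same limit of levels per kb.

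Of the hypothalamus list none of 3 tested genes was higher in edgeR (0 at an unadjusted p under 0.05 and 0 in DESeq2) and 2, *Trh* and *Pomc*, were lower. The summed level of this list followed the genotype label at both inputs. It was 380 and 408 cpm in KO 100, 383 and 342 in KO 1000, and 1098 to 1342 in WT. In KO against WT at 1000 cells, 1 gene of the list was lower. Of the retina list none of 4 was higher in edgeR (also 0 by both), and 1 was lower in edgeR and 0 in DESeq2. Of the sensory ganglia list 1 of 5 was higher and 1 lower, and of the olfactory bulb list also 1 of 5 was higher and 1 lower. DESeq2 called 0 olfactory bulb genes higher and 1 lower. No gene of the cholinergic list and none of the noradrenergic list passed the filter, and the choline acetyltransferase gene *Chat* had 3 and 1 counts in KO 100 and 12 in the other 6 libraries together. Of the further glutamate genes 2 of 2 were higher, of the further GABA genes 2 of 3, of the dopamine list 1 of 3, of the glycine list 1 of 1, of the serotonin list 0 of 1 in edgeR and in DESeq2, with 0 at an unadjusted p under 0.05, and of the forebrain transcription factors 2 of 2. In each of these lists with a higher gene, 1 gene reached 10 counts only in KO 100. It was the only higher gene of the dopamine and of the glycine list, so these 2 calls are a description. DESeq2 called 1 further glutamate gene, 2 GABA genes, 1 dopamine gene, 0 glycine genes and 1 forebrain transcription factor higher. Some genes belong to several lists, so the counts by transmitter and by region are not separate. Among them, *Slc17a6* is also in the thalamus list, *Slc30a3* in the neocortex list and *Pvalb* in the cerebellum list. The glycine list summed to 1.27 and 0.15 cpm in KO 100 and to at most 0.16 cpm elsewhere. Of the list of neural progenitors and newborn neurons 1 of 9 was higher, *Dcx*, with 13 and 7 counts, and 3 were lower, among them the progenitor filament *Nes*. *Dcx* reached 10 counts only in KO 100, so its call is a description, and none of the other 8 was higher. Of the 8 genes of the REST complex list 2 were higher and 2 lower in edgeR and in DESeq2, with a median log2 ratio of 0.04 in edgeR. Over the tested genes that reached 10 counts elsewhere, 23.9% were higher and 22.3% lower. *Rest* itself fell by 0.31 ± 0.07 (log2, edgeR, adjusted p = 0.0019) and was at 275 and 270 cpm in KO 100. A part of *Rest* in the levels of neuronal genes was not tested.

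**Figure D4:**
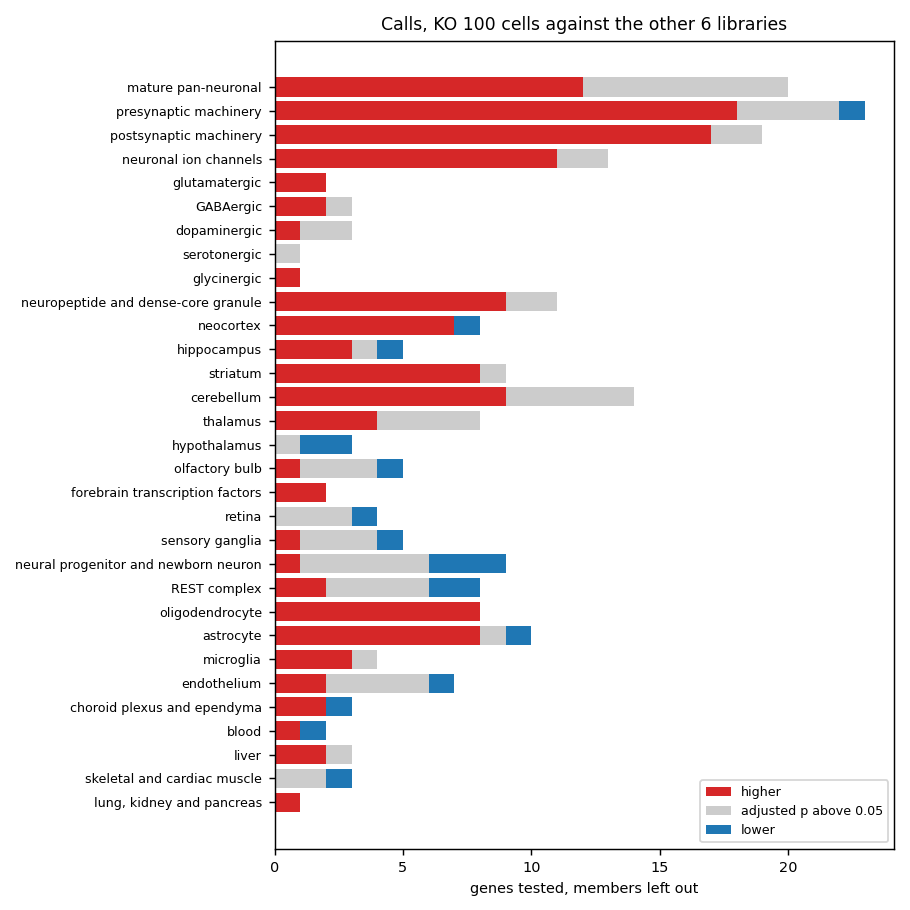
Number of tested genes outside the set (horizontal axis) that were higher, lower or above an adjusted p of 0.05 in edgeR for KO 100 against the other 6 libraries, by list. Genes that reached 10 counts only in KO 100 are included. The oligodendrocyte list has 8 of 8 higher and the retina, hypothalamus, serotonergic and muscle lists are among those with none.

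Markers of oligodendrocytes and astrocytes were mostly higher in KO 100. Of 5 oligodendrocyte genes that reached 10 counts elsewhere 5 were higher, beside 23.9% higher and 22.3% lower over all such genes. Another 3 reached 10 counts only in KO 100, so that the filter set their direction, and all 8 tested genes were higher. The summed level of the list was 262 and 270 cpm in KO 100 against 43.0 to 53.6 in the others. *Mbp*, a myelin protein, had 1416 and 1360 counts in KO 100 and 131 in the other 6 libraries together. Of the 7 genes of the astrocyte list that reached 10 counts elsewhere 5 were higher and 1, *Gja1*, was lower. With the 3 that reached 10 counts only in KO 100, 8 of 10 were higher. The sum of the list was 410 and 411 cpm against 278 to 309. *Slc1a2*, the glutamate transporter of astrocytes, had 395 and 304 counts in KO 100 and 20 in the other 6 together. Of the microglia list 3 of 4 tested genes were higher, the 3 that reached 10 counts only in KO 100, and the remaining gene was not called. The sum of the list was 40.3 and 43.2 cpm, which overlapped the 24.6 to 40.8 cpm of the others. *Ttr*, a marker of the choroid plexus that the liver also expresses, had 141 and 143 counts in KO 100 and none elsewhere. Of its list 2 of 3 tested genes were higher and 1, *Folr1*, was lower, and the summed level of 42.3 and 45.8 cpm lay within the 27.8 to 64.3 cpm of the others. Of the endothelium list 2 of 7 tested genes were higher and 1 lower, and of the blood list 1 of 2 was higher and 1 lower. Of the liver list 2 of 3 were higher with *Ttr* among them, and of the list of lung, kidney and pancreas 1 of 1. Every higher gene of the choroid plexus, endothelium and blood lists reached 10 counts only in KO 100, as did *Ttr* of the liver list. These calls are a description. Of the liver genes that reached 10 counts elsewhere, 1 of 2 was higher. The liver genes *Serpina1a* and *Fgb* had no count in any library, and *Alb* had 5 and 3 in KO 100. The part of these other cell types in the result was not tested.

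Of genes in none of the lists, the 10 with the largest log2 ratio at a mean of at least 10 cpm in KO 100 were *Cdr1*, *Arpp21*, *Sparcl1*, *Gpm6a*, *Atp2b2*, *Atp6v1g2*, *Gpm6b*, *Gm10801*, *Prkar1b* and *Gm10717*. Their log2 ratios ran from 9.91 to 4.13. *Cdr1* had 1 count in the other 6 libraries together and 181 and 217 in KO 100.

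The 31 genes held 0.0743% (exact 95% interval 0.0728 to 0.0757) and 0.0745% (0.0731 to 0.0760) of the counts in KO 100, and 0.0457% to 0.0592% in the others. The mean difference was 0.0205 percentage points. Without *Stmn2* the share was 0.0410% and 0.0386% in KO 100 against 0.0080% to 0.0095% in the others, a difference of 0.0308 percentage points. *Snap25* made up 24.5% of the summed difference in cpm without *Stmn2*, and the 8 vesicle and release genes 53.6%.

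With the wider neuronal lists and the granule list, 123 genes held 0.230% of the counts in KO 100 (mean of 2) and 0.154% in the others. A count with no list gave 106 genes with 3 or fewer counts over the other 6 libraries and 10 or more in both KO 100 libraries, and they held 0.0232% and 0.0227% of the counts. This way of choosing fixed the direction of their share. No such count was made for another pair of libraries, and the 106 genes were not sorted by cell type, so they are not a measure of neuronal RNA. These shares add up only the genes counted. A share of counts becomes a share of neuronal RNA only with a reference profile of neurons, which was not used here, and it is not a share of cells.

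**Figure D5:**
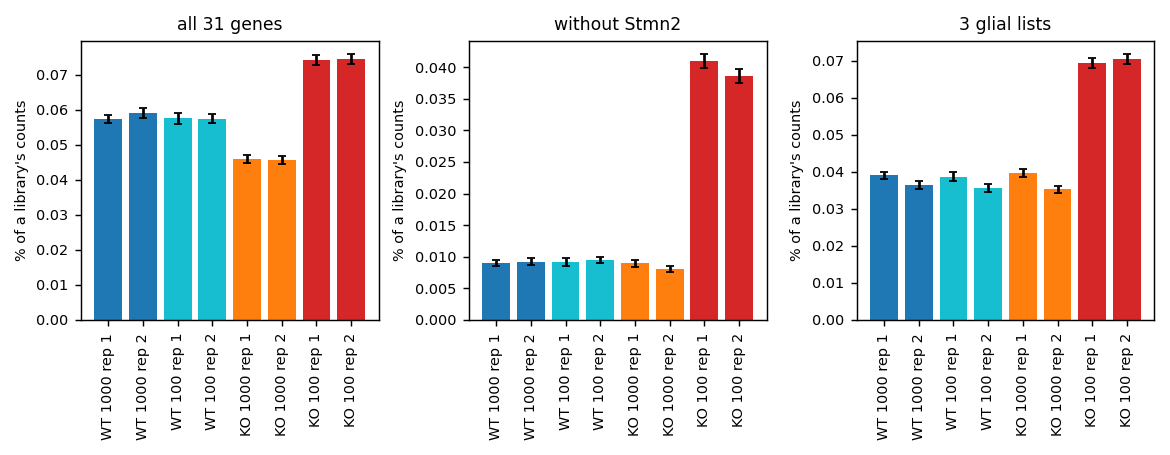
Share of each library's counts (vertical axis, %, from 0) held by the 31 genes, by the 31 genes without *Stmn2* and by the 3 glial lists, with exact 95% intervals for counting error. Without *Stmn2* the 2 libraries of 100 KO cells are at 0.0410% and 0.0386% and the other 6 at 0.0080% to 0.0095%.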

How the data were processed

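The deposited table holds raw fragment counts per gene for 8 libraries, with no normalization by the authors. The authors removed ribosomal reads with Bowtie2 2.1.0, mapped the rest to mm10 with TopHat 2.0.10 and counted over GENCODE M4 genes with HTSeq 0.6.1, ignoring strand and discarding fragments that matched several genes or positions. Identifiers without version were matched to GENCODE M21 symbols (97.96%). The 31 genes and all lists were chosen with earlier results of these data known. Genes reaching 10 counts in any library entered tests with edgeR 4.0.16 in R 4.3.3 (trimmed mean of M values, TMM, quasi-likelihood F test, Benjamini-Hochberg adjustment, threshold 0.05). The tests were run on simulated data first. Group and replicate came from the labels. Since clones are not tied to libraries, p-values measure the spread between these libraries. Levels are cpm on TMM-adjusted totals, with ± for the SE. The 2 replicates of each group differed by more than counting noise, and those of WT 100 differed most.

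All 31 genes are described. From every other list up to 4 higher genes with the highest level in 100 KO cells, and all lower genes up to 4, could be named, with the 10 leading genes in no list. Some genes that this rule names are not reported here. *Chat*, *Alb*, *Serpina1a* and *Fgb* were named after their values were seen. Alternatives were DESeq2 1.42.0, 2 other scalings, 2 other filters, thinning to the smallest total, a replicate block, other reference groups, 1 fit of all libraries and each library left out. Same-numbered replicates did not deviate together (correlations of -0.056 to 0.070), so the numbers were not taken as pairs.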

Additional observations from a re-analysis of the deposited data

Results flagged for a closer look

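For 7 genes every KO library was below every WT library at 1000 cells and above every WT library at 100 cells. The difference between the 2 KO to WT log2 ratios (on the log2(cpm + 0.5) scale, 100 minus 1000 cells) was 5.15 for *Syn2*, 4.95 for *Camk2a*, 3.85 for *Penk*, 3.14 for *Nefm*, 1.78 for *Chga*, 1.43 for *Nefl* and 1.19 for *Thy1*. For *Syn2* the order at 1000 cells rests on 1 count in WT 1000 replicate 2 against 1 count in KO 1000 replicate 1, so that library size alone sets it. The difference was not tested, because the libraries of 100 KO cells chose these genes. That choice also favoured KO above WT at 100 cells. The same count was not made over all tested genes, so the 7 genes have no share to be set beside. Over all tested genes, 20.6% were lower in KO at 1000 cells. *Calb2* had a difference of -0.01, with KO above WT by 1.99 at 1000 cells and 1.98 at 100 cells.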

How the results depend on the processing

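For KO 100 against the other 6 libraries, 8089 genes passed the threshold, and leaving out 1 library gave 4762 (without KO 100 replicate 2) to 9927 (without WT 100 replicate 2). Of the wider neuronal genes, 58 were higher, and 29 when each gene needed 10 counts in every library, a filter that removes genes with low counts outside KO 100. Counting only genes with 10 counts in at least 1 of the other 6 libraries, an alternative chosen after seeing the data, left 39. For KO against WT at 1000 cells, the 3 higher and 7 lower genes of the set became 1 and 3 with DESeq2, thinning to the smallest total left 3 lower, and leaving out 1 library left 4 to 6 lower. The cause of these losses was not tested.

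For 100 against 1000 cells in WT, 139 genes passed, and 79 with library size alone, 474 with no filter, 212 with DESeq2, 60 after thinning, 676 in 1 fit of all 8 libraries and 6 (without WT 1000 replicate 2) to 2631 (without WT 100 replicate 1) with 1 library left out. Of the set, 0 or 1 gene was higher and 0 or 1 lower with 1 library left out, 1 was higher and 1 lower in the fit of all 8 libraries, and 1 was lower with no filter. With replicate number as a block, 285 genes passed, of which 1 of the set was lower, and the blocked counts of the other comparisons stayed within 1.5 times. The numbers do not pair the samples.

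The share held by the 31 genes differed by 0.0205 percentage points, by 0.0231 with TMM-scaled totals of tested genes, by 0.0285 over KO 1000 alone, by 0.0308 without *Stmn2* and by 0.0189 to 0.0216 with 1 library left out. Depth limits the ratios of the 7 genes with fewer than 10 counts in each of the other 6 libraries, and most of all the 4 with 3 or fewer counts over them together (*Sst*, *Slc32a1*, *Pcp4* and *Gria2*).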
